A study of Mus musculus with 2 samples.

Results

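The mannose receptor Mrc1 and 8 further endocytic receptors of macrophages (Cd163, Msr1, Marco, Stab1, Cd36, Colec12, Lyve1 and Folr2) were examined for accessible chromatin in colonic macrophages of Tle4cKO and WT mice. The genotypes differ at Tle4, which encodes a corepressor. Members were the peaks that overlapped the annotated span of each of the 9 genes or the 10 kb on either side of it. These were 117 of the 128129 peaks of the Tle4cKO library and 132 of the 128737 peaks of the WT library. The Tle4cKO library came from Tle4f/f Lyz2-Cre mice and the WT library from Lyz2-Cre mice, so that both genotypes carried the Cre driver, which is active in macrophages, monocytes and neutrophils. All mice were male C57BL/6 animals aged 18.9 weeks. Cells negative for Siglec-F, low for Ly6C and positive for CD64 were sorted from the colon of 2 mice per genotype on the same occasion and pooled. Each genotype therefore has 1 library, no value below has a replicate check, and every difference describes these libraries.

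Scavenger receptors bind polyanionic or modified ligands, such as oxidised lipoproteins, bacterial surfaces and cell debris, and carry them into endosomes and lysosomes. Mrc1 (CD206) is a C-type lectin that takes up mannose-rich glycoproteins and collagen fragments. Mrc1, Cd163, Lyve1 and Folr2 are widely used as markers of resident tissue macrophages. TLE proteins such as Tle4 do not bind DNA themselves and are brought to chromatin by partners that include RUNX, TCF/LEF and HES factors.

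In ATAC-seq, Tn5 transposase cuts open DNA and leaves sequencing adapters there. Each deposited peak has a width, a summit and a pileup, the authors' signal at the summit. The median pileup was 20 in the Tle4cKO list and 28 in the WT list, with read totals and scaling unknown. Raw pileups are therefore not comparable in level between the libraries, and pairs were read in 2 relative ways. In each of 92328 pairs, in which each peak was the highest of those overlapping its partner, the shift is the Tle4cKO percentile rank minus the WT percentile rank among all pairs. The relative log2 ratio is the log2 ratio of the Tle4cKO pileup to the WT pileup minus the median of this ratio among pairs of similar summed pileup (the peer ratio), and a pair was called higher or lower in Tle4cKO when this ratio was past 1.3-fold. Of all pairs, 9.79% were called higher and 10.0% lower. At the Tle4 gene itself lay 14 Tle4cKO and 22 WT peaks. Where the deletion lies within it is not in the labels, so its peaks give no check of genotype, and loss of Tle4 in the sorted cells was not tested. All 12 macrophage markers examined, among them Adgre1, Fcgr1, Csf1r and Mertk, had a peak within 1000 bp of a gene end in both libraries. So did 6 of 7 B and T cell markers and 4 of 5 dendritic cell markers, so such a peak does not identify the cells.

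Start sites are shown for the 6 members for which the RefSeq promoter table (GRCm38.p6, the assembly behind mm10) holds an entry, since whether a peak lay there differed between receptors and not between the libraries. The 250 bases before the start are given 5′ to 3′ on the strand of the gene, and for Folr2, which has 2 entries, the start at the gene end is printed. Capitals mark AGGAAG on either strand, the core that PU.1 and other ETS factors bind.
Mrc1 (chr2:14229164-14229413, plus strand): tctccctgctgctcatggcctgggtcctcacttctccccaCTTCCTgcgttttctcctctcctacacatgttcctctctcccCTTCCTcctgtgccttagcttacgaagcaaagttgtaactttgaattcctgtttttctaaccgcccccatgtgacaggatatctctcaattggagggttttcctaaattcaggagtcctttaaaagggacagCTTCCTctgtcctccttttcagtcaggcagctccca
Cd36 (chr5:17835897-17836146, minus strand): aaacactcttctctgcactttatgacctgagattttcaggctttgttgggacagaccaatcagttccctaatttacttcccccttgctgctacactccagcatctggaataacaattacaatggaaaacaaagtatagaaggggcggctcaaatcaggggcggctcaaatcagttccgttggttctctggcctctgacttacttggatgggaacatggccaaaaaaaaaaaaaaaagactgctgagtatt
Folr2 (chr7:101857191-101857440, minus strand): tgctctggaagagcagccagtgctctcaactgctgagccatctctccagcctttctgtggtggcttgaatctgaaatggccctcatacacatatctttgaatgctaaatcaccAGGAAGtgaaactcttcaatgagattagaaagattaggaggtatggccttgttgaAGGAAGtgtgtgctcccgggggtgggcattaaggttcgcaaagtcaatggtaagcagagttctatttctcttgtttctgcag
Marco (chr1:120505025-120505274, minus strand): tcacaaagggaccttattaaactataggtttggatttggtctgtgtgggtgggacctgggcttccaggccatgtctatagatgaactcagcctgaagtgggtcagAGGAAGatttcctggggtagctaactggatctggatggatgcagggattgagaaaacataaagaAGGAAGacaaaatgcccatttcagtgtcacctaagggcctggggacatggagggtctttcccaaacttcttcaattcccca
Cd163 (chr6:124304401-124304650, plus strand): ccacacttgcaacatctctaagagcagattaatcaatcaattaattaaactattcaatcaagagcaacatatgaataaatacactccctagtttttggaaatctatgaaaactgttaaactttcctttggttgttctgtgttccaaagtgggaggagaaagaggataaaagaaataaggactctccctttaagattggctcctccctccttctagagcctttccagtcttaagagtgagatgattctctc
Stab1 (chr14:31168642-31168891, minus strand): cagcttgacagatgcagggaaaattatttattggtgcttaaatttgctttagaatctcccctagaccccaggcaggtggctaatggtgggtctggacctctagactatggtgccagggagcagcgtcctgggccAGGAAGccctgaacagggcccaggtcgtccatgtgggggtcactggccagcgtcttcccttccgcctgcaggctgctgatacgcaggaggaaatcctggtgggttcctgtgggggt

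Peaks covered the printed windows of Mrc1, Cd36 and Folr2 in both libraries, while none of either library lay in those of Marco, Cd163 and Stab1. Mrc1 had 3 AGGAAG matches, beginning 210, 168 and 36 bases before the start, Folr2 and Marco 2 each, Stab1 1, and Cd36 and Cd163 0. The motif was present in 29.5% of all 32851 promoter windows of this length. Matches to it did not separate covered from uncovered starts: Cd36 was covered without a match and Marco uncovered with 2. The RUNX letters TGNGGT occurred once each before the Marco, Stab1 and Folr2 starts and in 40.1% of all windows. The TCF/LEF letters CTTTGAT were in none of the printed windows (3.21% of all windows), and the variant CTTTGTT occurred in Cd36 alone, with 2 matches (5.03%). The nuclear receptor letters AGGTCA were found before the Cd36 start alone (14.0%), and the GC box GGGCGG occurred before Mrc1 and Cd36 (32.7%). Both strands were searched. No match in the printed windows was found for the E-box CACGTG (6.02% of all windows), the HES-type letters CACGCG (7.62%), the TATA box TATAAA (12.4%) or the C/EBP pattern TTGCNNAA (9.56%). The same held for the AP-1 pattern TGANTCA (6.75%) and the STAT pattern TTCNNNGAA (7.02%). TGCTGA, which large MAF factors can bind, was found before Cd36, Stab1 and Folr2 (16.1%).

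Mrc1 had the most peaks per length of the 9 genes, with 3.18 per 10 kb of gene and flanks in Tle4cKO and 3.67 in WT. The gene (gene ID 17533, mm10 chromosome 2, 14229414 to 14332023, plus strand) held 39 Tle4cKO and 45 WT peaks with its flanks, of which 33 and 39 lay in the gene. Of the 39 and 45, 4 were Tle4cKO-only (10.3%) and 10 WT-only (22.2%), while over the whole lists 23.5% of Tle4cKO peaks and 27.1% of WT peaks were in 1 list only. The annotation gives no exons here, so peaks are placed by their distance from the start. In pooled cells, fewer cells of a type and less open chromatin per cell cannot be told apart.

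**Figure D1:**
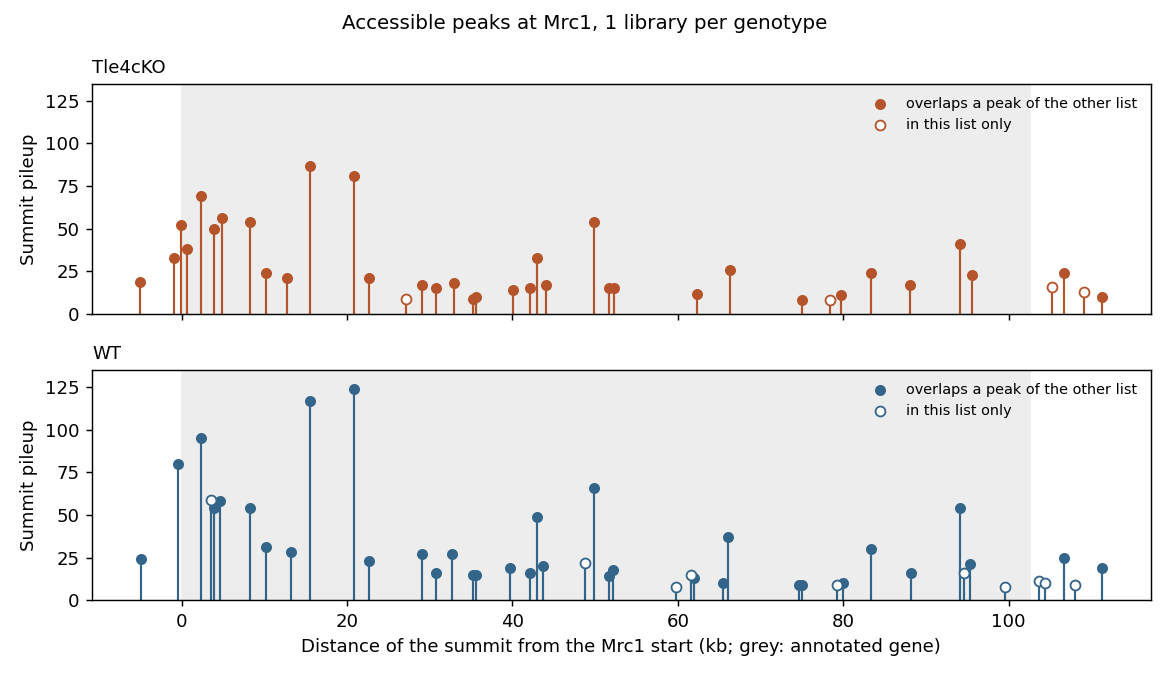
Summit pileup (signal, y axis) of each peak at Mrc1 against the distance of its summit from the gene start in kb (x axis), with the Tle4cKO library above and the WT library below. Filled points overlap a peak of the other list and open points are in that list alone; the highest peaks, 87 in Tle4cKO and 124 in WT, lie within the first 30 kb of the gene.

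At the Mrc1 start the form of the accessible region differed between the lists. The Tle4cKO list held 3 separate peaks, at 14228320 to 14228609 with a pileup of 33, at 14228744 to 14229742 with 52, and at 14229872 to 14230218 with 38. The WT list held a single peak of 1878 bp at 14228342 to 14230219 with a pileup of 80. The outer borders nearly coincided, and the lists differed in whether the stretch was called as 1 peak or as 3. Of all shared WT peaks, 5.85% overlapped 2 or more Tle4cKO peaks. In pileup this pair was near the peer ratio, with a relative fold of 0.924 and a shift of -2.51 percentile points.

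The next peaks downstream included 3 pairs of high pileup that ranked higher in Tle4cKO. A peak with its WT summit 2344 bp after the start (14231011 to 14232013 in WT) had pileups of 69 in Tle4cKO and 95 in WT, at the peer ratio (relative fold 1.01). The following 3 pairs, with WT summits 3906, 4664 and 8201 bp after the start, were called higher in Tle4cKO. The pair at 14233144 to 14233537 in Tle4cKO had pileups of 50 in Tle4cKO and 54 in WT, a relative fold of 1.35. That at 14233834 to 14234525 had 56 in Tle4cKO and 58 in WT, a relative fold of 1.39. That at 14237169 to 14237786 had 54 in both libraries, a relative fold of 1.45. The raw pileups of these pairs were thus about equal, in libraries whose median pair had a Tle4cKO to WT ratio of 0.741. Just before this group, at 14232806 to 14233019, lay the strongest WT-only peak of the gene, with a pileup of 59 and a width of 214 bp. It ended 125 bp before the nearest Tle4cKO peak and counted as shared when gaps of up to 500 bp were allowed.

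Further into the first 30 kb lay the highest peaks of the locus, neither of which ranked higher in Tle4cKO. The highest Tle4cKO peak of the locus, with its summit 15567 bp after the start, had a pileup of 87 in Tle4cKO and 117 in WT (relative fold 1.01, shift -0.07 percentile points). The highest WT peak, at 20783 bp, had 81 in Tle4cKO and 124 in WT, a relative fold of 0.883 and a shift of -3.83 points. Of the weaker pairs in this stretch, that with its WT summit 22614 bp after the start was called higher, with 21 in Tle4cKO and 23 in WT. Those at 10190, 13165 and 29034 bp had 24, 21 and 17 in Tle4cKO, against 31, 28 and 27 in WT, and relative folds of 1.16, 1.09 and 0.909. Over the 10 pairs of the first 30 kb, 8 lay above the peer ratio and 4 were called higher, and the median shift was 3.96 percentile points.

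The stretch from 30 to 60 kb held Mir511, the microRNA gene inside Mrc1 that is transcribed with it. Its mature sequence is printed with the seed, bases 2 to 8, in capitals, since the hairpin lies between accessible sites of Mrc1.
mmu-miR-511-3p (chr2:14261051-14261072, plus strand): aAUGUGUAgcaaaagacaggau

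The hairpin, at 14261003 to 14261081, overlapped no peak and lay between a pair ending before it and a pair beginning after it. The pair before it had pileups of 15 in Tle4cKO and 16 in WT, with a relative fold of 1.23. The pair after it had 18 in Tle4cKO and 27 in WT, with a relative fold of 0.963. The peak before it ended 464 bp away in Tle4cKO and 364 bp away in WT, and the peak after it began 1021 bp away in Tle4cKO and 617 bp away in WT. Neither of the pairs beside Mir511 was past 1.3-fold.

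Apart from those beside Mir511, most pairs between 30 and 60 kb were weak, with WT pileups of 14 to 20. The exceptions were the pairs at 42986 bp, with 33 in Tle4cKO and 49 in WT (relative fold 1.0), and at 49823 bp, with 54 in Tle4cKO and 66 in WT (relative fold 1.17). The pair at 51630 bp was called higher in Tle4cKO, with 15 in Tle4cKO and 14 in WT, and the pair at 35167 bp lower, with 9 in Tle4cKO and 15 in WT. The remaining 5 pairs, at 35567, 39753, 42165, 43714 and 52201 bp, had 10 to 17 in Tle4cKO and 15 to 20 in WT, and relative folds of 0.848 to 1.25. The 11 pairs of this stretch had a median shift of 5.08 percentile points, and 6 lay above the peer ratio.

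Towards the 3′ end, 7 of 8 pairs lay above that ratio. The pair with the largest relative gain of the locus had its WT summit 95300 bp after the start (14324523 to 14325243 in Tle4cKO), with pileups of 23 in Tle4cKO and 21 in WT and a relative fold of 1.58. The pair at 88144 bp had 17 in Tle4cKO and 16 in WT, a relative fold of 1.44. Neighbouring pairs at 94086 and 83305 bp had 41 and 24 in Tle4cKO, against 54 and 30 in WT, with relative folds of 1.11 and 1.20. The pairs at 61963, 66030, 74621 and 80021 bp had 12, 26, 8 and 11 in Tle4cKO, against 13, 37, 9 and 10 in WT, and none was past 1.3-fold. Beyond the gene end the pairs went opposite ways. That at 106726 bp had 24 in Tle4cKO and 25 in WT (relative fold 1.39), and that at 111331 bp had 10 in Tle4cKO and 19 in WT (relative fold 0.648). The pair upstream of the gene, with its WT summit at -4964 bp from the start, had 19 in Tle4cKO and 24 in WT (relative fold 1.16).

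**Figure D2:**
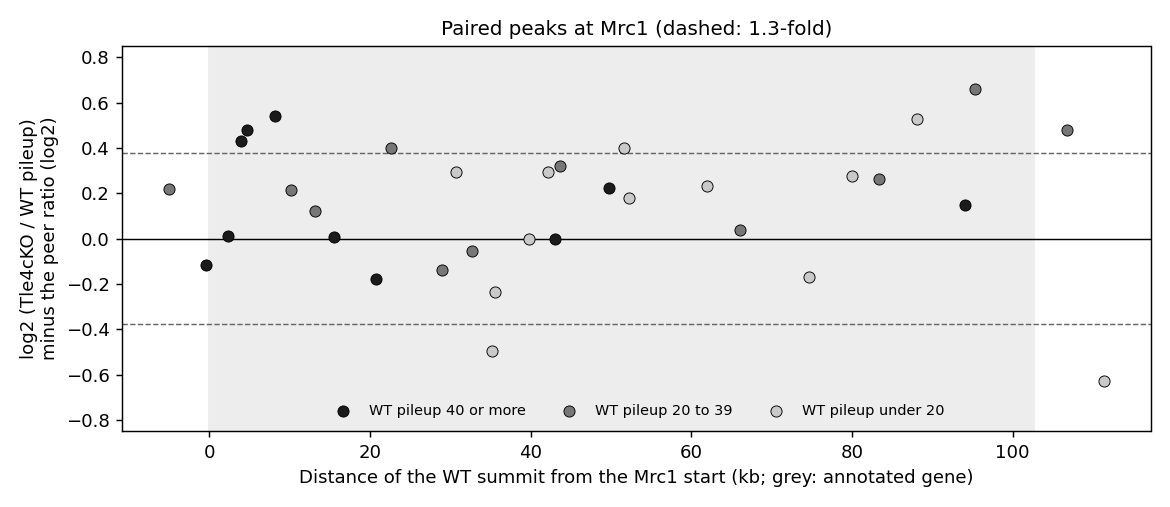
Relative log2 ratio of the Tle4cKO to the WT pileup (y axis) of the 33 paired peaks at Mrc1 against the distance of the WT summit from the gene start in kb (x axis), shaded by WT pileup. Points above 0 are higher in Tle4cKO than the peer ratio; 8 points lie above the upper dashed line (1.3-fold) and 2 below the lower.

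Over all 33 pairs of Mrc1 the median shift was 4.7 percentile points, and 0.039 over all pairs of the lists. The median relative log2 ratio was 0.22, a relative fold of 1.16, and 23 pairs lay above 0, 8 below and 2 at 0. The Mrc1 pairs had a median WT percentile rank of 28.9, against 49.6 for all pairs. The shift of 0.039 is therefore not that of pairs of like pileup. The 18 pairs of 6 neutrophil markers had a median shift of 5.09, close to that of Mrc1, and 3 of the 6 had a gene-end peak in Tle4cKO and 5 in WT. The CD64-positive gate is meant to exclude neutrophils, and how many passed it was not tested. The pairs of 12 macrophage markers had a median shift of -0.36, and the part of other cells in the Mrc1 result was not tested. Called higher in Tle4cKO were 8 of 33 pairs (24.2%, 95% Wilson interval 12.8% to 41.0%) and called lower 2 (6.06%, 1.68% to 19.6%), beside 9.79% and 10.0% of all pairs. Pairs of high pileup pass the fold less often than others, so the counts were also read by class. Of the 10 Mrc1 pairs with a WT pileup of 40 or more, 3 were called higher and 0 lower, where 2.67% and 5.65% of all such pairs were. Of the 11 with 20 to 39, 3 were called higher and 0 lower (13.3% and 16.9% of all such pairs), and of the 12 under 20, 2 and 2 (24.3% and 12.6%). The 3 pairs called higher in the class of 40 or more had WT pileups of 54, 58 and 54, in its lower part. That class has no upper limit, and no share is given for pairs of just that pileup. The median shift of the Mrc1 pairs was 1.77, 5.06 and 4.79 percentile points in these classes. The shift of all pairs in each class is not given here, so these values have no comparison of like pileup. At 1.5-fold, 1 Mrc1 pair was higher and 1 lower, and at 1.2-fold 13 were higher and 2 lower. With a pileup of at least 15 and at least 20, 5 and 3 were higher and 0 lower in both. These classes were chosen after the values were seen, and neighbouring peaks of a gene are not independent.

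Counting intervals separated no Mrc1 pair from its peers, and they did so for few pairs of the lists. The exact 95% interval of the pileup ratio held the peer ratio in all 33 pairs, while 0.676% of all pairs had an interval above it and 0.620% below it. An outcome of 0 among 33 pairs is near these shares and is no result about Mrc1. For the pair at 14324523 the ratio was 1.10 (0.580 to 2.08), against a peer ratio of 0.692. For the pair at 14237169 it was 1.0 (0.673 to 1.49), against a peer ratio of 0.688. Pileup is taken at the summit, the highest point, so these intervals are approximate, and they cover counting error only. The median shift of 4.7 points has a 95% interval, read from the order of the 33 pairs, of -0.06 to 6.95, which holds 0. The same interval of the median relative log2 ratio is 0.008 to 0.294, just above 0. Whether the interval holds 0 thus depends on the scale, and the pairs are not independent.

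Beside the gene, the 18 pairs 10 to 200 kb upstream had a median shift of -3.70 percentile points, with 5 above the peer ratio. Downstream over the same distance there were 2 pairs, neither above it. With 50 kb on either side of the gene the median shift was 1.93, and with peaks of a pileup of at least 15 it was 3.10. These distances beside the gene were chosen after its values were seen. Of the 465 protein-coding genes with at least 20 pairs, the median of the gene medians was 0.286 percentile points, the 5th percentile -2.48 and the 95th 3.18, and 7 genes, Mrc1 among them, were at 4.7 or above. The genes with the nearest medians were Ncald (4.73 over 20 pairs), Sh3pxd2b (4.88 over 21), Abtb2 (4.46 over 26), Camta1 (4.97 over 20) and Zfp704 (5.06 over 26). The genes were not matched to Mrc1 in pileup, and likeness here rests on 1 library per genotype.

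Widths of paired Mrc1 peaks differed in both directions. The Tle4cKO to WT width ratio had a median of 0.993 over its pairs, against 0.931 over all pairs, and ranged between 0.304 and 2.21. In Tle4cKO 7 of 33 peaks were over 1.5 times wider than in WT and 8 over 1.5 times narrower. Summits lay a median of 41 bp apart, and 44 bp over all pairs, and 22 of 33 (66.7%) were within 100 bp, beside 67.3% of all pairs. The largest summit displacement was 440 bp, in a pair with pileups of 8 in Tle4cKO and 9 in WT. The 4 Tle4cKO-only peaks had pileups of 8, 9, 13 and 16, and 2 of them lay beyond the gene end. Of the 10 WT-only peaks, that with 59 is described above, that at 14277794 to 14278585 had a pileup of 22, and the other 8 had 8 to 16. In the WT set 5 of 10 lay within 500 bp of a Tle4cKO peak, and in the Tle4cKO set 0 of 4 lay that near to a WT peak.

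**Figure D3:**
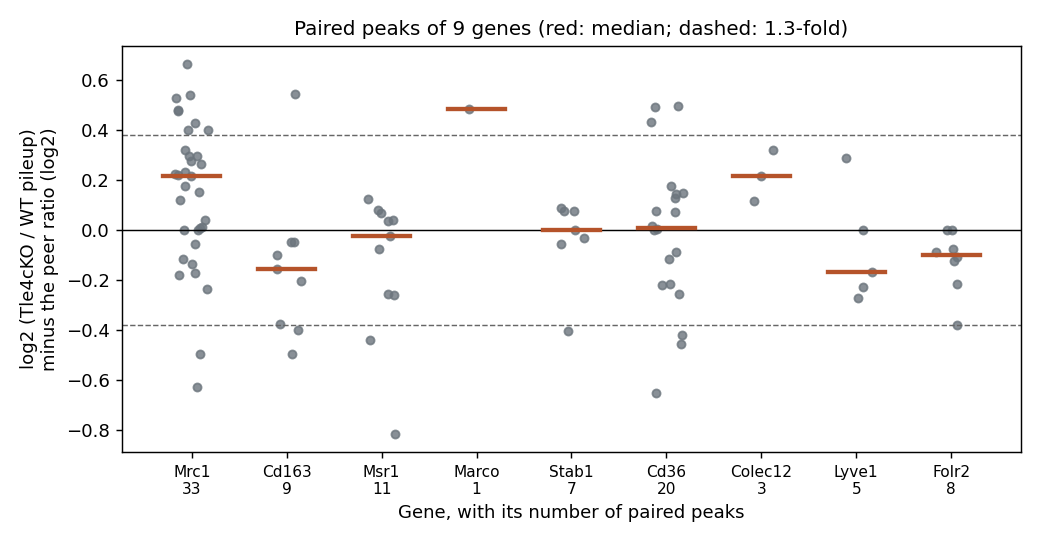
Relative log2 ratio of the Tle4cKO to the WT pileup (y axis) of every paired peak of the 9 genes (x axis, with the number of pairs), with medians as bars and 1.3-fold as dashed lines. The median of Mrc1 (0.22) is above 0 and those of Cd163 (-0.16), Lyve1 (-0.17) and Folr2 (-0.10) are below it; Marco has 1 pair and Colec12 3.

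The 64 pairs of the other 8 genes had a median shift of -1.24 percentile points (interval over pairs -2.54 to 0.69) and a median relative log2 ratio of -0.04, with 5 called higher in Tle4cKO (7.81%) and 9 lower (14.1%). The Tle4cKO pileup was above the WT pileup in 1 of these 64 pairs and in 4 of the 33 Mrc1 pairs (12.1%), beside 6.59% of all pairs. With all 9 genes, 13 of 97 pairs were called higher (13.4%) and 11 lower (11.3%), beside 9.79% and 10.0% of all pairs. For the other 8 genes and for all 9, the 95% Wilson intervals of both shares held those of all pairs. List-only peaks were 16 of 117 in Tle4cKO (13.7%, 8.60% to 21.1%) and 29 of 132 in WT (22.0%, 15.8% to 29.8%). The Tle4cKO share lay below that of the whole list, and the WT interval held that of the whole list. Of the member peaks, 15 in Tle4cKO and 17 in WT overlapped a further annotated gene, so they cannot be assigned to the receptor alone.

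**Figure D4:**
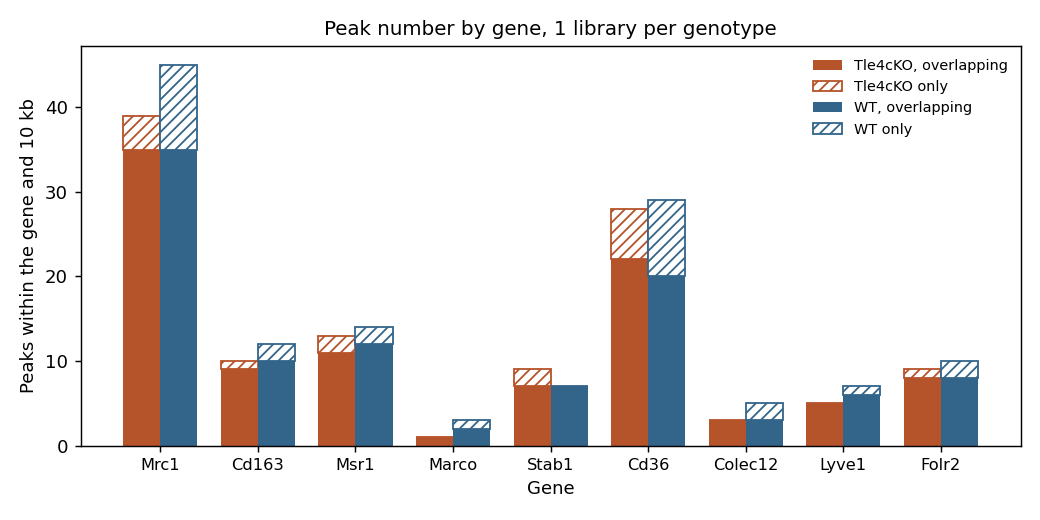
Number of peaks (y axis) within each gene and 10 kb on either side (x axis) in the Tle4cKO library (left bar) and the WT library (right bar), with list-only peaks hatched. Mrc1, with 39 and 45, and Cd36, with 28 and 29, hold most peaks, and Marco, with 1 and 3, fewest.

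Cd163 encodes the receptor that clears haemoglobin bound to haptoglobin. The median shift of its 9 pairs was -4.55 percentile points, and 8 of 9 lay below the peer ratio. The interval of this shift over pairs that are not independent was -9.09 to -1.42, and -11.9 to 16.5 without the flanks. The window (chromosome 6, gene 124304636 to 124330529, plus strand) held 10 Tle4cKO and 12 WT peaks, with 1 Tle4cKO-only and 2 WT-only. No peak covered the start in either library. The nearest in Tle4cKO began 2115 bp inside the gene, and the nearest in WT was a WT-only peak of pileup 8 that began 110 bp inside it. The strongest peak lay upstream over the pseudogene Gm6308, with 40 in Tle4cKO and 67 in WT (relative fold 0.868). The strongest inside the gene, at 124321393 to 124322036 in Tle4cKO, had 29 in Tle4cKO and 48 in WT and also lay in the annotated gene Gm52877. The pair at 124324592 to 124325154 was the most displaced of those with a summed pileup of at least 50, with 18 in Tle4cKO and 35 in WT (ratio 0.514, 0.274 to 0.933, peer ratio 0.677). In the opposite direction, the pair at 124315861 to 124316380 had 17 in Tle4cKO and 15 in WT. It is the 1 pair of the other 8 genes with a higher raw pileup in Tle4cKO.

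The class A receptors Msr1, Marco and Colec12 differed widely in how open their genes were. Msr1, which binds modified lipoproteins and bacterial surfaces, held 13 Tle4cKO and 14 WT peaks (chromosome 8, 39543232 to 39642750), Colec12 3 and 5 (chromosome 18, 9707648 to 9877995), and Marco 1 and 3 (chromosome 1, 120474538 to 120505024). Per 10 kb of gene and flanks, Msr1 had 1.09 peaks in Tle4cKO and 1.17 in WT, Marco 0.198 and 0.594, and Colec12 0.158 and 0.263. Inside the genes lay 8 peaks in Tle4cKO and 9 in WT at Msr1, 3 and 5 at Colec12, and 0 and 0 at Marco.

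Msr1 had a median shift of -0.46 points over its 11 pairs, 5 of which lay above the peer ratio and 6 below. The strongest, at 39618724 to 39620950 in Tle4cKO, was 2227 bp wide with a pileup of 107 in Tle4cKO, and 2214 bp wide with 141 in WT. At the gene end at 39642750 the Tle4cKO list had a single peak of 1802 bp (39641598 to 39643399, pileup 39) where WT had peaks at 39641571 to 39642094 (45) and 39642263 to 39643049 (68), the reverse of the split at Mrc1. Of all shared Tle4cKO peaks, 1.56% overlapped 2 or more WT peaks. A narrow pair inside the gene, at 39625166 to 39625367 in Tle4cKO, had the lowest relative fold of all member pairs, 0.569, with 16 in Tle4cKO and 41 in WT. Its ratio of 0.390 had an interval of 0.204 to 0.711, which held the peer ratio of 0.686. The other pair called lower lay beyond the gene at 39649897 to 39650625, with 35 in Tle4cKO and 69 in WT. A Tle4cKO-only peak with a pileup of 27 lay beyond the gene at 39646273 to 39646475. A WT-only peak with 29 lay inside it at 39637299 to 39637764, and a WT-only peak with 22 lay beyond it at 39650696 to 39650935, 71 bp from a Tle4cKO peak.

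Marco, a collagen-like receptor for bacteria and particles, had no peak inside the gene in either library. Its 1 pair lay beyond the 3′ end, with a pileup of 18 in both libraries and a relative fold of 1.40, beside a WT-only peak of pileup 20 at 120468831 to 120469404. The Tle4cKO peak of the pair also overlapped a WT peak of pileup 13 at 120467227 to 120467430, which held the Tle4cKO summit. The paired WT summit lay 286 bp away, so these pileups are of different sites. Colec12, a collectin of the cell surface described mainly in endothelium, had weak peaks alone, with at most 17 in Tle4cKO and 20 in WT. The peak at its gene end at 9707648 had 11 in Tle4cKO and 12 in WT. Its 3 pairs had relative folds of 1.08 to 1.25, and its 2 WT-only peaks had pileups of 8 and 10.

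Stab1, which encodes stabilin-1, a receptor for acetylated lipoproteins and matrix proteins, had some of the strongest peaks of the 9 genes. Its window (chromosome 14, gene 31139017 to 31168651, minus strand) held 9 Tle4cKO and 7 WT peaks, and all 7 WT peaks had a partner. The median shift was 0.13 percentile points. The strongest peak of the gene, with its WT summit 2270 bp inside the start, had 159 in Tle4cKO and 182 in WT, a relative fold of 1.06. The next inside the gene, at 31160175 to 31161342 in Tle4cKO, had 123 in Tle4cKO and 155 in WT (relative fold 1.0). The start in the promoter table lay 1669 bp from the nearest peak in Tle4cKO and 1615 bp from the nearest in WT. The 1 pair called lower was weak, with 11 in Tle4cKO and 19 in WT. Of the 2 Tle4cKO-only peaks, that with a pileup of 9 lay inside the gene and that with 12 in the neighbouring gene Nt5dc2.

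Cd36, the class B receptor for oxidised lipoproteins and long-chain fatty acids, held the most peaks after Mrc1, with 28 Tle4cKO and 29 WT peaks (chromosome 5, gene 17781690 to 17888959, minus strand). Its 20 pairs had a median shift of 0.54 points, and 3 were called higher and 3 lower. The start in the promoter table, at 17835896, was covered by a peak with 66 in Tle4cKO and 105 in WT (relative fold 0.861). Its strongest peaks lay between this start and the far end of the annotated gene. That at 17854012 to 17855294 in Tle4cKO, with its WT summit at -18640 bp from the start, had 140 in Tle4cKO and 198 in WT (relative fold 0.860). That at 17841888 to 17842860 had 133 in Tle4cKO and 175 in WT.

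Pairs past 1.3-fold at Cd36 went both ways and were among its weaker peaks. The pairs at 17808074, 17806610 and 17820915 were lower in Tle4cKO, with 7, 10 and 20 in Tle4cKO, against 11, 16 and 39 in WT, and relative folds of 0.636, 0.729 and 0.748. Those at 17819246 and 17846802 were higher, with 37 and 38 in Tle4cKO, against 39 and 41 in WT. The pair at 17815087 to 17815839 in Tle4cKO was also called higher, with 28 in Tle4cKO and 29 in WT, a relative fold of 1.41. Its WT peak was 1524 bp wide against 753 bp in Tle4cKO, where a second peak of pileup 19 covered the remainder. The summits of this pair lay 887 bp apart, and the WT summit lay in the second Tle4cKO peak, at 17816021 to 17816703. This call therefore compares pileups at different sites. A Tle4cKO-only peak at 17850494 to 17850745 had a pileup of 40 and lay 3266 bp from any WT peak. A WT-only peak at 17881667 to 17882073 had 43 and lay 903 bp from any Tle4cKO peak. These are the strongest list-only peaks of the gene, 1 in each direction. The other 5 Tle4cKO-only peaks had 9 to 15, and the other 8 WT-only peaks 12 to 21, of which those with at least 20 lay at 17776722, 17779483 and 17824274.

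Lyve1 and Folr2 mark a subset of tissue macrophages found beside vessels, and Lyve1, a hyaluronan receptor, also marks lymphatic endothelium. At Lyve1 (chromosome 7, 110850607 to 110862953) lay 5 Tle4cKO and 7 WT peaks, of which the strongest, with 118 in Tle4cKO and 174 in WT, lay over the neighbouring gene Rnf141. The peak at the Lyve1 gene end at 110862953 had 15 in Tle4cKO and 21 in WT. Inside the gene the pair at 110859151 to 110860587 in Tle4cKO had 21 in Tle4cKO and 37 in WT, a relative fold of 0.828. The median shift of the 5 pairs was -3.46 percentile points, and none was past 1.3-fold. Without the flanks it was -0.44.

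At Folr2, which encodes folate receptor beta (chromosome 7, gene 101839988 to 101857190, minus strand), 0 of 8 pairs lay above the peer ratio, 6 lay below it and 2 at it. The median shift was -1.99 percentile points (interval over pairs -10.1 to -0.63), and -2.96 without the flanks. On the relative log2 scale the interval reached 0. The start at the gene end was covered by a peak with 21 in Tle4cKO and 31 in WT (relative fold 1.0), and the inner start at 101845331 by a peak with 11 in Tle4cKO and 14 in WT. The most displaced pair lay inside the gene at 101851585 to 101852217 in Tle4cKO, with 29 in Tle4cKO and 56 in WT (ratio 0.518, 0.319 to 0.825, peer ratio 0.673). The strongest peak of the gene itself had 40 in Tle4cKO and 62 in WT, and the strongest of the window, with 70 in Tle4cKO and 102 in WT, lay over Inppl1 and Gm10602.

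The 4 markers of resident macrophages were not displaced in 1 direction. Mrc1 had 23 of 33 pairs above the peer ratio, whereas Cd163 had 1 of 9, Lyve1 1 of 5 and Folr2 0 of 8. Some pairs of Cd163, Lyve1 and Folr2 overlapped further annotated genes. The Lyve1 pairs inside the gene had relative folds of 1.22, 0.828 and 1.0, and its other pairs lay over Rnf141. No count among these single libraries tests whether the genes differ, and the members were chosen with results of these libraries known.

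Genes that act with these receptors were described from 6 lists with 73 entries (Lrp1 is in 2 lists), all matched in the annotation, and the genes named are among those that differed most between the libraries in list-only peaks or in shift. Whole-list shares of list-only peaks were 23.5% in Tle4cKO and 27.1% in WT, and the shares in 5 of the 6 lists were below these in both libraries. The 18 other scavenger receptors held 29 Tle4cKO-only of 184 peaks (15.8%) and 30 WT-only of 176 (17.0%). Of their 145 pairs, 12 were called higher and 7 lower, beside 9.79% and 10.0% of all pairs. Their median shift was 0.90 percentile points. Cd5l, a secreted protein of the same cysteine-rich family as Cd163, held 0 peaks in Tle4cKO alone and 4 in WT alone and a median shift of 6.54 over 5 pairs. Megf10, an engulfment receptor, had 4.49 over 5 pairs, and Cd207 (langerin) -7.65 over 3. The 9 genes of the mannose receptor family and other endocytic lectins held 10 of 40 peaks in Tle4cKO alone (25.0%) and 12 of 41 in WT alone (29.3%), and a median shift of -0.95 over 29 pairs. Among the relatives of Mrc1, Ly75 (DEC-205) held 0 peaks in Tle4cKO alone and 5 in WT alone, Mrc2 (Endo180) 6 and 2, and Pla2r1 2 and 0. Their median shifts were 4.28, -4.86 and -10.4 over 6, 4 and 4 pairs. Fcna (ficolin A), a soluble lectin, had the largest shift of this list, 10.8 over 3 pairs, and Clec10a, a galactose-binding lectin of macrophages and dendritic cells, -7.07 over 3.

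The hyaluronan and folate list of 10 genes held 13 of 64 peaks in Tle4cKO alone (20.3%) and 16 of 65 in WT alone (24.6%), and a median shift of 0.71 over 48 pairs. Cd44, the main hyaluronan receptor of leukocytes, held 8 and 5. Of its 23 pairs, 5 were called higher in Tle4cKO and 0 lower, beside 9.79% and 10.0% of all pairs. Hmmr, a further hyaluronan-binding protein, held 0 and 3, and Folr1, whose window overlaps that of Folr2, 1 and 4. Tnfaip6, which binds hyaluronan, had the largest shift of this list, 2.52 over 3 pairs. The 12 genes found with Lyve1 and Folr2 in tissue macrophages held 7 of 64 peaks in Tle4cKO alone (10.9%) and 14 of 70 in WT alone (20%), and a median shift of 0.79 over 54 pairs. Timd4, a phosphatidylserine receptor, held 0 and 3 and F13a1 (coagulation factor XIII A) 1 and 4, while Igf1 had a median shift of -7.07 over 5 pairs and Maf 5.72 over 3. The 10 haem genes had 8 of 84 peaks in Tle4cKO alone (9.52%) and 15 of 88 in WT alone (17.0%), and a median shift of 0.75 over 73 pairs. Slc40a1 (ferroportin), the iron exporter, held 0 and 3, and Slc48a1, a haem transporter, 3 and 2, with a shift of 3.81 over 4 pairs. Hpx (haemopexin) and Blvra (biliverdin reductase A) had -2.49 over 4 and -2.23 over 6. The 14 upstream regulators of Mrc1 and Cd36 held 26 of 162 peaks in Tle4cKO alone (16.0%) and 33 of 164 in WT alone (20.1%), and a median shift of -0.10 over 130 pairs. Tle4 itself, the gene targeted in Tle4cKO, differed most in this list, with 3 and 12. Pparg, a nuclear receptor that drives Cd36 in macrophages, held 3 and 3 and a shift of -3.54 over 12 pairs. Of the 12 pairs of Pparg, 3 were called lower and 0 higher, beside 10.0% and 9.79% of all pairs. Rxra, its partner, held 8 and 5 and a shift of -1.48 over 18. Of the TLE partners, Lef1 held 5 and 1, and Tcf7l2 3 and 5 with a shift of -2.50 over 20 pairs.

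Several members are also expressed by other cell types, so markers of these were counted. The sort on Siglec-F, Ly6C and CD64 is meant to exclude eosinophils and most monocytes and neutrophils, and its purity was not tested. Of 12 endothelial markers, 5 had a gene-end peak in Tle4cKO and 9 in WT, with 14 Tle4cKO-only of 86 peaks (16.3%) and 21 WT-only of 90 (23.3%), both shares below those of the whole lists, and a median shift of 0.18 over 68 pairs. The lymphatic factor Prox1 had 1 peak in each list, with pileups of 10 in Tle4cKO and 9 in WT, and Tie1 had 0 peaks in Tle4cKO and 2 in WT. Other endothelial markers had many strong peaks. Pecam1 had 18 in Tle4cKO and 21 in WT, with pileups of up to 132 and 178. Vwf had 20 and 18, with up to 171 and 214. Among stromal markers, Dcn and Lum had no peak in either list, while Pdgfrb had 14 in Tle4cKO and 15 in WT, with pileups of up to 187 and 215. Among epithelial markers, Krt19 and Krt20 had no peak, while Vil1 had 11 in Tle4cKO and 10 in WT, with up to 110 and 143. Of 9 stromal markers, 6 had a gene-end peak in Tle4cKO and 5 in WT. Of 10 epithelial markers the numbers were 5 and 6, and of 4 adipocyte markers 1 and 1. Monocyte markers numbered 4 of 5 in Tle4cKO and 5 of 5 in WT, neutrophil markers 3 and 5 of 6, eosinophil markers 3 and 3 of 5, dendritic cell markers 4 and 4 of 5, and B and T cell markers 6 and 6 of 7. Their median shifts were 0.67, 5.09, -3.34, 0.03 and 0.49 points over 32, 18, 19, 60 and 29 pairs, and those of stroma, epithelium and adipocytes were -1.21, -1.99 and 0.39 over 34, 27 and 18. The 84 pairs of the macrophage markers had a median shift of -0.36, with 4 called higher and 7 lower, beside 9.79% and 10.0% of all pairs. The share of all genes with a gene-end peak is not given here, so the gene-end counts do not measure cell content. Of the neutrophil genes, Ly6g had 0 peaks in Tle4cKO and 1 in WT, and S100a9 1 in each. S100a8 had 3 in Tle4cKO and 4 in WT, and Retnlg 2 and 4. Elane and Mpo had 7 in each list. Their highest pileups were 65 and 46 in Tle4cKO, and 98 and 71 in WT.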

How the data were processed

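ATAC-seq was run on 1 library per genotype, each from 2 pooled mice. Tools in the submitters' processing notes, with no order or role, are HOMER 4.7.2, edgeR 3.28.1, featureCounts 1.5.0, MACS2 2.1.1, Bowtie2 2.2.5 and cutadapt 1.14, with build mm10. Tn5 shifting, duplicate removal, peak thresholds and scaling were not given there. The peak lists the authors deposited are 1 per library and give the pileup signal at the summit, in whole numbers from 7, with width and position, so read depth is unknown and a threshold or depth difference moves weak peaks in and out of a list. Peaks were assigned to the RefSeq span of a gene (GRCm38.p6) plus 10 kb on either side. Peaks overlapping by at least 1 bp were shared. The peer ratio is the median of the pairs in the same of 50 bins by summed pileup. Intervals (95%) are Wilson's for shares and exact Clopper-Pearson for the ratio of pileups, covering counting error only. No test across genotypes was possible with 1 library each, so no p-value is given. For Mrc1 every pair and list-only peak was described. For the other members the start peak, the strongest peak, list-only peaks with a pileup of at least 20 and the most displaced pair with a summed pileup of at least 50 were described, and further peaks were named after their values were seen. The members, lists and rules were chosen with earlier results of these data known. Python 3.11.15, numpy 2.4.6, pandas 2.3.3, scipy 1.17.1 and matplotlib 3.10.9 were used, and the pairing and calls were tested on simulated lists. Alternatives were the window, overlap, gap, pileup minimum, pairing, bins and fold.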

Additional observations from a re-analysis of the deposited data

How the results depend on the processing

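No paired analysis was possible because each genotype has 1 library. Of 51 values recomputed for the main results under other settings, 34 stayed within bounds and 17 moved further. The bounds were 1.5 times of the reported count or the 95% interval of the reported median. Of the 34, 2 on the relative log2 scale were compared by sign alone. No median had the opposite sign, and a count of peaks or pairs cannot have one. The median shift of the Mrc1 pairs was between 1.93 and 4.74 percentile points under the 5 settings of window, pileup minimum and pairing, with intervals over the pairs that hold 0 in 4 of them, and that of the other members was between -2.13 and -0.63. Tle4cKO-only peaks, 16 as reported, numbered 10 in the gene spans alone, 5 with a pileup of at least 15, 2 with at least 20 and 2 among the 40000 highest peaks of each list. WT-only peaks, 29 as reported, numbered 18 in the gene spans alone, 56 with 50 kb on either side, 19 when a gap of at most 500 bp counted as shared and 3 among the 40000 highest. Pairs called higher in Tle4cKO, 13 as reported, numbered 8 and 6 with a pileup of at least 15 and 20, and 20 and 1 at 1.2-fold and 1.5-fold. Pairs called lower, 11 as reported, numbered 17 with 50 kb on either side, 5 and 3 with a pileup of at least 15 and 20, 7 against the median of all pairs and 3 at 1.5-fold. A narrower window or a higher minimum leaves fewer peaks by construction, and a minimum removes more Tle4cKO peaks since that list has the lower pileups. For all other moves the cause was not tested. Of 128 values for single members, 8 had the opposite sign, none of a median whose interval excluded 0. The shift of Msr1, -0.46, was 0.12 with 50 kb on either side, 0.15 with a pileup of at least 15 and 0.87 with at least 20. That of Stab1, 0.13, was -0.30 with 50 kb and just below 0 on the relative log2 scale. Tle4cKO-only minus WT-only peaks were 1 at Lyve1 with 50 kb, against -1 as reported, -1 at Stab1 with a pileup of at least 15, against 2, and 2 at Cd36 among the 40000 highest, against -3. Marco had no pair in the gene span alone or with a pileup of at least 20, and Colec12 none with a pileup of at least 20. Peaks near the lowest pileup in the lists, 7, are at the limit of what the depth shows, so a peak in 1 list only is not absence of accessibility in the other.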
